A study of Mus musculus with 12 samples.

Results

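The inhibitor of NF-kB (IkB) gene family was followed over 6 genes in BV2 cells, an immortalised line of mouse microglia, the resident macrophages of the brain. The genes were taken by symbol, 6 of the 22180 genes with a feature of their own on the array, and each of the 6 had 1 feature, so no choice between features was needed. They fall into 3 cytoplasmic inhibitors (Nfkbia, Nfkbib and Nfkbie) and 3 nuclear cofactors (Nfkbid, Nfkbiz and Bcl3). Wild-type cells were measured on 12 arrays, 3 in each of 4 groups, and every group carried 1.5% DMSO. The DMSO group had vehicle for 3 h. The LPS group had vehicle for 2 h and then lipopolysaccharide, a bacterial cell wall component sensed by Toll-like receptors, for 1 h. The Telmisartan group had the angiotensin receptor blocker telmisartan for 3 h, and the Telmisartan+LPS group had telmisartan for 2 h and then LPS for 1 h. Neither the telmisartan dose nor the LPS dose is stated in the sources used here. The groups allow LPS and the drug to be compared alone and together.

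NF-kB is a family of dimeric transcription factors that switch on inflammatory genes. In resting cells the cytoplasmic inhibitors bind these dimers through ankyrin repeats and keep them out of the nucleus. LPS activates the IkB kinase, which marks the inhibitors for degradation, and the freed NF-kB then drives transcription of Nfkbia itself, a textbook negative feedback loop. The nuclear members share the ankyrin repeats but act on chromatin, mostly with p50 or p52 homodimers, and can raise or lower transcription of chosen targets. The array measures RNA, so protein degradation of the inhibitors is outside these data.

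The promoters of members are shown because the family is known for its own regulation by NF-kB. RefSeq windows of build GRCm38.p6, from 250 bases before to 50 after a start, were at hand for 5 members and 7 starts, and Nfkbiz had no entry. The kB consensus, the binding motif of NF-kB, was searched on both strands and is in capitals below. The windows are Nfkbia at chr12:55492598-55492897 on the minus strand, Nfkbie at chr17:45555450-45555749 on the plus strand and the middle of 3 Nfkbid starts at chr7:30422156-30422455 on the plus strand, each written 5′ to 3′ on the gene's strand.
Nfkbia: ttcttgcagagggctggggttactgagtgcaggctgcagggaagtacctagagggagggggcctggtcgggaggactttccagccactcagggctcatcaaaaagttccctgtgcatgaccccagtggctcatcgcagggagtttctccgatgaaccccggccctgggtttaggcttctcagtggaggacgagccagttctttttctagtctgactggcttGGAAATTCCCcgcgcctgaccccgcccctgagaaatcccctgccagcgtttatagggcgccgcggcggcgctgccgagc
Nfkbie: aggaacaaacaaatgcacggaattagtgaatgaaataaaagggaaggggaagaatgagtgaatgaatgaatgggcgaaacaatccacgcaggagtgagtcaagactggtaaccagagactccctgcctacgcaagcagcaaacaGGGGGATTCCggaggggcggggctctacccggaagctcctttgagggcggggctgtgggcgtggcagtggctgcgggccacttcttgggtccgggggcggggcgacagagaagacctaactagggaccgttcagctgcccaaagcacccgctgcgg
Nfkbid: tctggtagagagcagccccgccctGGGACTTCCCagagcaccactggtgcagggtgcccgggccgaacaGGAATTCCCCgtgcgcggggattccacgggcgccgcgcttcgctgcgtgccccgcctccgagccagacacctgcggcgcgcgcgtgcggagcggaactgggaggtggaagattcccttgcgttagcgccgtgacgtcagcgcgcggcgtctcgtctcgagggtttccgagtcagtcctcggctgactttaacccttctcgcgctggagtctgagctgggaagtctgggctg
The Nfkbia window held 1 match, GGAAATTCCC, starting at position -29 from the start. The Nfkbie window held 1, GGGGGATTCC, at -106. The Nfkbid window shown held 2, GGGACTTCCC at -226 and GGAATTCCCC at -181, and the windows of the other Nfkbid starts held 0. Bcl3 had 1 match, GGGAAGTCCC, at position 3 after the start, and Nfkbib had 0. Of 32851 windows of the same length in the table, 4.51% held at least 1 match. The AP-1 site TGANTCA, found in 7.81% of all windows, occurred in the Nfkbie window (TGAGTCA at -156), and the cyclic AMP response element TGACGTCA, in 1.79% of all windows, occurred in the Nfkbid window shown, at -51. No match overlapped a match to another motif. Matches to the kB consensus therefore stood in windows of members that rose with LPS (Nfkbia, Nfkbie) and of members that did not pass the test (Nfkbid, Bcl3), as the values that follow show.

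All values are log2 signals after the robust multi-array average (RMA), a background correction, quantile normalization and probe summary. Levels carry the SD of 3 arrays, and differences carry the standard error (SE) of a limma fit over all 12 arrays. The threshold for a call was 0.05 on the p that limma gives after Benjamini-Hochberg adjustment over 22180 genes. Of 14 microglia and macrophage markers, 13 had a feature of their own and 12 of these lay above the median of all features, 4.10, with Cd68 highest at 12.23. The homeostatic microglia receptor gene P2ry12 was below that median at 3.58. Tmem119 and Cx3cr1 were low as well, at 4.81 and 5.29 with DMSO. That is near the highest astrocyte and neuron markers, Aldh1l1 at 4.75 and Rbfox3 at 5.04. Also above the median were 1 of 4 measured astrocyte, 1 of 3 neuron, 0 of 3 oligodendrocyte and 2 of 3 endothelial markers. The mean of the microglia and macrophage list lay between 8.63 and 8.73 on every array. The lists for astrocytes, neurons, oligodendrocytes and endothelial cells had means of 3.81 to 4.29. Telmisartan+LPS replicates 1 and 3 stood apart from the other arrays in a principal component analysis, with a score of -20.18 for replicate 3 along component 2 and of -17.31 for replicate 1 along component 3, so results that use this group are given also without both of them where they move. That leaves 1 array, replicate 2, in the group, so such values are given without a test. The labels speak of independent samples that were each analysed in triplicate, without saying which an array is, so the p-values cover only variation between arrays, which may be technical. In the RefSeq annotation Nfkbib overlaps Ccer2 and Bcl3 overlaps the non-coding Gm16174, and signals of overlapping genes may not be fully separate.

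Within 1 h of LPS, 3 of the 6 IkB genes rose, and they came from both classes. Nfkbiz rose 2.62-fold, Nfkbia 2.05-fold and Nfkbie 1.88-fold, while Nfkbib, Nfkbid and Bcl3 stayed short of the threshold. The 3 calls compare with 0.379% of all genes called higher (84 of 22180), and their LPS and DMSO arrays did not overlap, which held upwards for 6.28% of all genes. By size of the rise, Nfkbiz was the 12th, Nfkbia the 24th and Nfkbie the 30th of all genes.

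**Figure D1:**
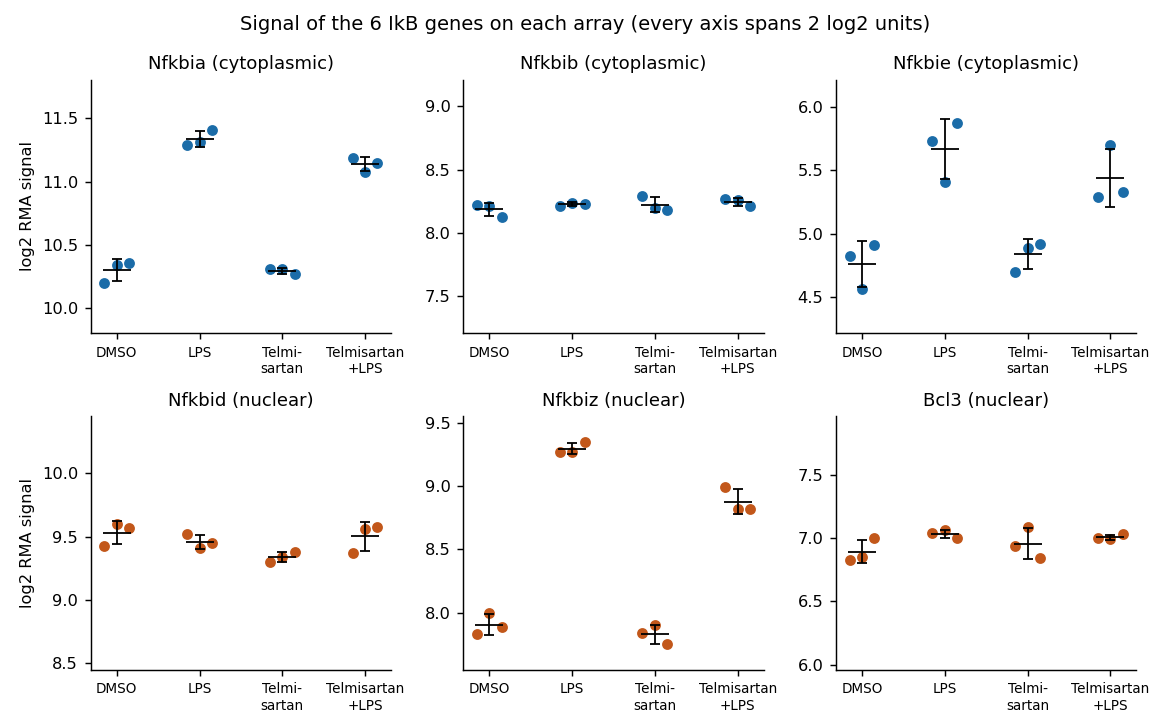
Log2 RMA signal of each IkB gene (6 panels, y axis, each spanning 2 log2 units around its own level) on 12 arrays in 4 treatment groups (x axis), with points for arrays and black bars for the mean and SD of 3. Nfkbia, Nfkbie and Nfkbiz stand higher in both groups with LPS, and Nfkbiz lies lower in Telmisartan+LPS (8.82 to 8.99) than in LPS (9.27 to 9.35).

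Nfkbia encodes IkB alpha, the inhibitor that is degraded and remade fastest. Its signal in the DMSO arrays was 10.20, 10.34 and 10.36, and in the LPS arrays 11.29, 11.31 and 11.41. The groups lay apart by far more than their spread, with means of 10.30 ± 0.09 (SD, n = 3) and 11.34 ± 0.06 (SD, n = 3). The difference was 1.04 (SE 0.07, adjusted p = 1.71e-06 by limma). Nfkbie encodes IkB epsilon, an inhibitor that is itself NF-kB inducible and responds more slowly. It was dim, at 4.82, 4.56 and 4.91 with DMSO, and at 5.73, 5.41 and 5.87 with LPS. The LPS arrays were again all higher, but the spread was wider, with an SD of 0.18 and 0.24 in the respective groups and a residual SD of 0.196 against a median of 0.117 over all genes. Its difference was 0.91 (SE 0.14, adjusted p = 0.00635 by limma).

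Nfkbib encodes IkB beta, the inhibitor known for slow, sustained control and for not being induced by NF-kB. Its DMSO arrays read 8.22, 8.21 and 8.13 and its LPS arrays 8.21, 8.24 and 8.23. The groups overlapped, and Nfkbib had the smallest residual SD of the family, 0.0422. The LPS difference was 0.04 with a 95% interval from -0.09 to 0.17 (adjusted p = 0.894 by limma). An increase of the size seen for Nfkbia or Nfkbie lies outside this interval, whose upper end is below the lower ends of theirs, 0.89 and 0.61.

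Among the nuclear members, Nfkbiz, which encodes IkB zeta, a cofactor needed for secondary response genes such as Il6 in mouse macrophages, had the largest change of the family. Its DMSO arrays were at 7.83, 8.0 and 7.89, and its LPS arrays at 9.27, 9.27 and 9.35. The lowest LPS array exceeded the highest DMSO array by more than the whole spread within either group. The difference was 1.39 (SE 0.07, adjusted p = 6.55e-07 by limma), the 3rd smallest p of all genes in this comparison.

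Nfkbid encodes IkBNS, which in mouse macrophages restrains Il6 transcription. It read 9.43, 9.60 and 9.57 with DMSO and 9.52, 9.41 and 9.45 with LPS, and the groups overlapped. The difference was -0.07 with a 95% interval from -0.24 to 0.09 (adjusted p = 0.82 by limma). Bcl3 encodes a cofactor that binds p50 and p52 homodimers and was first found through a translocation in human leukaemia. Its arrays read 6.83, 6.85 and 7.0 with DMSO and 7.04, 7.06 and 7.0 with LPS, meeting at 7.0. The difference was 0.14 with a 95% interval from -0.02 to 0.30 (adjusted p = 0.618 by limma). The intervals of Nfkbid and Bcl3 both end below the lower end of the Nfkbiz interval, 1.23.

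The cytoplasmic and nuclear classes therefore did not move as blocks, and each class held both called and uncalled members. With LPS the mean change was 0.66 over the cytoplasmic genes and 0.49 over the nuclear genes, a contrast of nuclear minus cytoplasmic of -0.18. The medians, 0.91 and 0.14, differ more, since the called genes are 2 of 3 in the cytoplasmic class and 1 of 3 in the nuclear class, and the median of all 22180 genes was -0.00667. Per array, the contrast relative to the DMSO mean was -0.161, -0.101 and -0.264 with LPS against -0.078, 0.086 and -0.008 with DMSO. All LPS arrays were below all DMSO arrays, and the nuclear mean lay less far above its DMSO level than the cytoplasmic mean on each LPS array. Telmisartan without LPS also had a contrast of -0.10, with arrays at -0.101, -0.051 and -0.161 that overlapped the LPS arrays. In drug-treated cells the contrast for LPS was -0.07. The Telmisartan+LPS arrays, at -0.158, -0.251 and -0.114, overlapped the Telmisartan arrays, so the groups were not separated with the drug. The overlap came from replicates 1 and 3, the arrays that stand apart, and replicate 2 lay below every Telmisartan array. With replicate 2 alone the contrast for LPS in drug-treated cells was -0.15, a value from 1 array. Each class mean for LPS minus DMSO hides a spread inside its class from 0.04 to 1.04 (cytoplasmic) and from -0.07 to 1.39 (nuclear), wider than the contrast itself. The members were chosen with results known, so the contrast has no test.

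**Figure D2:**
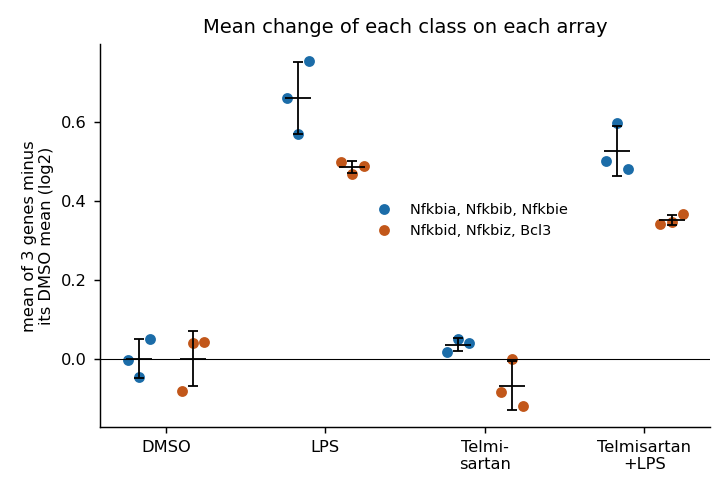
Mean log2 change of the 3 cytoplasmic genes (blue) and of the 3 nuclear genes (orange) relative to the class mean in DMSO (y axis), for each array in the 4 groups (x axis), with black bars for the mean and SD of 3 arrays. In the LPS group the cytoplasmic means run from 0.57 to 0.753 and the nuclear means from 0.469 to 0.499.

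Telmisartan without LPS gave no called change in any of the 6 genes, and limma called 0 of 22180 genes (0% called) against 5.51% at an unadjusted p under 0.05. Nfkbid was the member with separated groups, at 9.30, 9.34 and 9.38 with the drug. All drug arrays were below the DMSO arrays, a pattern in the same direction found in 6.66% of all genes. The difference was -0.19 (SE 0.08, adjusted p = 0.878 by limma). The other members overlapped between the groups, with differences from -0.08 (Nfkbiz) to 0.07 (Nfkbie). Nfkbia read 10.31, 10.31 and 10.27 with the drug, a mean of 10.30 ± 0.02 (SD, n = 3), and its difference from DMSO had a 95% interval from -0.15 to 0.14. The interval for Nfkbiz ran from -0.24 to 0.09, and that for Bcl3 from -0.10 to 0.23. Nfkbib at 8.29, 8.20 and 8.18, Nfkbie at 4.70, 4.89 and 4.92 and Bcl3 at 6.94, 7.09 and 6.84 likewise had ranges that overlapped those of the DMSO arrays.

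In cells given LPS, no member was called between telmisartan pretreatment and vehicle, and the 3 LPS-induced members had the lowest differences, -0.42 for Nfkbiz, -0.23 for Nfkbie and -0.20 for Nfkbia. Nfkbiz was at 8.99, 8.82 and 8.82 with drug and LPS, against 9.27 to 9.35 with LPS alone, and the groups did not overlap. The difference was -0.42 (SE 0.07), with a 95% interval from -0.58 to -0.26, and it had the 10th smallest p of all genes (adjusted p = 0.18 by limma). With limma's trend and robust options, which let the assumed variance follow the signal level and limit the pull of very variable genes, Nfkbiz passed the threshold (adjusted p = 0.023 by limma), and over all alternatives its adjusted p ran from 0.023 to 0.539. Without Telmisartan+LPS replicates 1 and 3 the difference was -0.48.

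Nfkbia was at 11.19, 11.08 and 11.15 with drug and LPS, below every LPS array. Its difference was -0.20 (SE 0.07, adjusted p = 0.383 by limma), and -0.26 without Telmisartan+LPS replicates 1 and 3. Nfkbiz and Nfkbia were the members whose groups separated downwards, as they did in 6.23% of all genes, and limma called 0 of 22180 (0% called) against 9.81% at an unadjusted p under 0.05. Nfkbie, at 5.29, 5.70 and 5.33, overlapped the LPS arrays, with a difference of -0.23 (SE 0.14, adjusted p = 0.613 by limma). Replicate 2 was the high array of its group: the difference was -0.36 without it, -0.16 without replicate 1, -0.18 without replicate 3 and, with replicate 2 alone, 0.03.

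The members without an LPS call had differences with intervals that spanned 0. Nfkbib read 8.27, 8.26 and 8.21 with drug and LPS, a difference of 0.02 with a 95% interval from -0.11 to 0.15. Bcl3 read 7.0, 6.99 and 7.03, a difference of -0.03 with an interval from -0.19 to 0.14. Nfkbid read 9.37, 9.56 and 9.58, a difference of 0.04 with an interval from -0.12 to 0.21. By class, the mean drug difference under LPS was -0.13 for nuclear and -0.14 for cytoplasmic members, so the contrast was 0.00, and -0.08 without the arrays that stand apart. This comparison shares the LPS arrays with LPS minus DMSO.

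**Figure D3:**
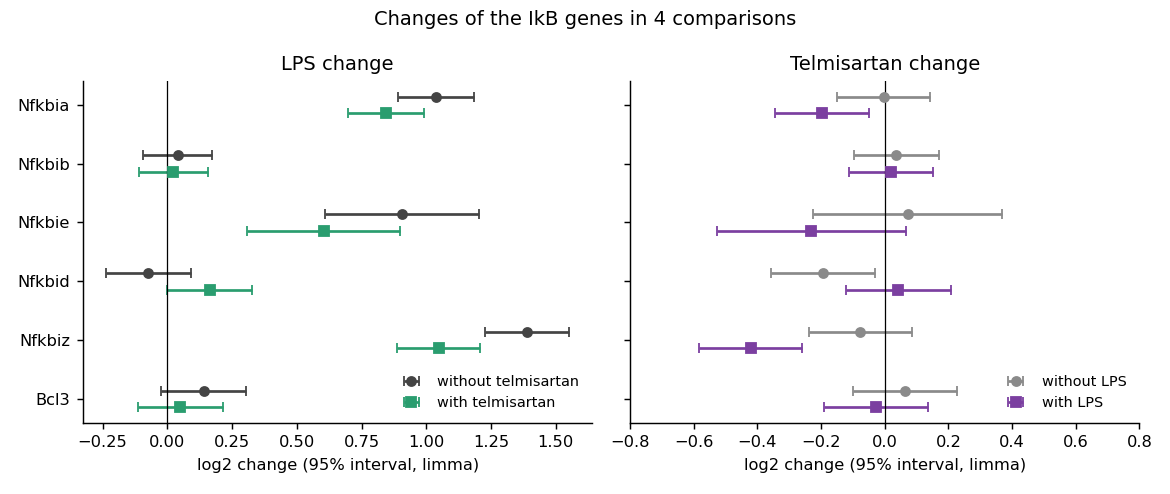
Log2 changes of the 6 IkB genes (rows) with 95% intervals from limma (x axis), for LPS without and with telmisartan on the left and for telmisartan without and with LPS on the right. For Nfkbiz the drug interval under LPS, -0.58 to -0.26, lies below 0, whereas without LPS it spans 0. The drug intervals of Nfkbia under LPS, -0.34 to -0.05, and of Nfkbid without LPS, -0.36 to -0.03, also lie below 0. The intervals are not adjusted for the number of genes, and no drug difference or interaction of a member was called.

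In drug-treated cells LPS still raised Nfkbiz and Nfkbia, 2 of the 6 members, where 0.248% of all genes were called higher. Nfkbiz was 2.07-fold higher than with telmisartan alone, a difference of 1.05 (SE 0.07) from arrays at 7.84, 7.90 and 7.75, and Nfkbia was 1.79-fold higher, a difference of 0.84 (SE 0.07). The limma adjusted p with Benjamini-Hochberg adjustment was 1.04e-05 for Nfkbiz and 2.63e-05 for Nfkbia. Nfkbie was higher on every array, as were 8.03% of all genes, at 0.60 (SE 0.14), short of the threshold (adjusted p = 0.105 by limma), but passed it with trend and robust options (adjusted p = 0.0426 by limma). Its value was 0.47 without Telmisartan+LPS replicate 2, and 0.86 with that array alone. Nfkbid differed by 0.16 (SE 0.08), Bcl3 by 0.05 (SE 0.08) and Nfkbib by 0.02 (SE 0.06), none of them called and each with overlapping groups.

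On the log2 scale the LPS change with the drug was 75.3% of that without it for Nfkbiz, 81.4% for Nfkbia and 66.5% for Nfkbie, from comparisons that share no arrays. The test of that difference is the interaction term. It was -0.34 for Nfkbiz (SE 0.11), -0.19 for Nfkbia (SE 0.10) and -0.30 for Nfkbie (SE 0.19), with limma adjusted p of 0.604, 0.647 and 0.707 after Benjamini-Hochberg adjustment. The Nfkbie value was -0.43 without Telmisartan+LPS replicate 2, and -0.04 with that array alone. Nfkbid had the opposite sign, 0.24 (SE 0.11, adjusted p = 0.636 by limma), and its lowest group was Telmisartan. Limma called 0 members and 0 of 22180 genes in the interaction (0% called), against 7.78% at an unadjusted p under 0.05, so an LPS response that differs with the drug was not shown for any member.

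Averaged over both drug states, LPS raised Nfkbiz by 1.22 (SE 0.05), Nfkbia by 0.94 (SE 0.05) and Nfkbie by 0.76 (SE 0.10), where 0.537% of all genes were called higher. The limma adjusted p after Benjamini-Hochberg adjustment was 2.44e-08, 9.6e-08 and 0.00112 in that order. The average was 0.03 for Nfkbib, 0.04 for Nfkbid and 0.09 for Bcl3, with none called. Averaged over both LPS states, the drug difference was -0.25 for Nfkbiz (SE 0.05, adjusted p = 0.293 by limma) and -0.10 for Nfkbia (SE 0.05, adjusted p = 0.704 in limma), with no member called and 0.00451% of all genes called, against 7.32% at an unadjusted p under 0.05.

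The order of group means was LPS, Telmisartan+LPS, then both groups without LPS, for Nfkbia, Nfkbie and Nfkbiz alike. For Nfkbiz every step down to the groups without LPS was larger than the ranges of the neighbours, 9.30 ± 0.05, 8.88 ± 0.10 and 7.91 ± 0.09 (SD, n = 3 each), while DMSO and Telmisartan (7.83 ± 0.08, SD, n = 3) overlapped. For Nfkbia the order was 11.34 ± 0.06, 11.14 ± 0.06 and 10.30 ± 0.09 (SD, n = 3 each), with Telmisartan at the DMSO level. For Nfkbie the neighbours LPS (5.67 ± 0.24, SD, n = 3) and Telmisartan+LPS (5.44 ± 0.23, SD, n = 3) overlapped, as did Telmisartan (4.84 ± 0.12, SD, n = 3) and DMSO (4.76 ± 0.18, SD, n = 3). Group means of Nfkbib spanned only 8.19 to 8.25 and those of Bcl3 6.89 to 7.03, with all neighbours in the order overlapping. For Nfkbid the order was DMSO (9.53 ± 0.09, SD, n = 3), Telmisartan+LPS (9.50 ± 0.12, SD, n = 3), LPS (9.46 ± 0.06, SD, n = 3) and Telmisartan (9.34 ± 0.04, SD, n = 3), and in that order only the step from LPS to Telmisartan had arrays that did not overlap.

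Of the 5 NF-kB subunit genes, 4 had a feature of their own, and none of these was called with LPS. Rel, which encodes the c-Rel subunit, led with 0.42 (SE 0.09, adjusted p = 0.0705 by limma), Relb was at 0.32 and Rela, the gene of p65, at 0.14, and the list median was 0.228 against -0.00667 over all genes. With dim genes left out, with trend and robust options, with array weights or without Telmisartan+LPS replicate 1, replicate 3 or both, 1 gene of this list passed the threshold. Of 10 measured genes of the IkB kinase and of kinases and adaptors linked to it, none was called. Map3k8, the kinase that is held by p105, led with 0.35, followed by Ikbkg, the regulatory kinase subunit, at -0.18 and Ikbke at 0.17. Of 11 measured genes for ubiquitination, turnover and binding of IkB, none was called, and the largest changes were -0.22 for Nkiras1, a small GTPase that binds IkB beta, -0.17 for Nedd8 and -0.13 for Skp1. Their list medians were 0.005 and -0.09. Nfkbil1, an ankyrin repeat gene named for its likeness to IkB, was at -0.02.

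Of 7 genes reported to need Nfkbiz in mouse macrophages, 3 rose with LPS and none fell, against 0.379% of all genes called higher and 0.0496% called lower. The cytokine gene Il6 rose by 3.75 (SE 0.24), and the myeloid growth factor genes Csf2 by 1.26 and Csf3 by 0.79. In limma with Benjamini-Hochberg adjustment their adjusted p was 1.41e-06, 0.000639 and 0.0216. Csf2 and Csf3 were dim, with means of 3.41 and 4.23 with DMSO and of 4.68 and 5.02 with LPS, against a median of all features of 4.10. Il12b was dim too, at 4.59 with DMSO. Il12b at 0.04, Lcn2 at -0.02, Cebpd at 0.14 and Edn1 at 0.25 were not called, and the list median was 0.253. The number called was 2 under several alternatives, among them without any single DMSO array, without LPS replicate 1 or 2 and with only the compared groups in the fit. It was also 2 with dim genes left out, a filter that removed Csf2 itself. With the drug under LPS none of the 7 was called, with Il6 at -1.35, Csf2 at -0.59, Edn1 at -0.23, Csf3 at -0.06, Il12b at 0.03, Cebpd at 0.13 and Lcn2 at 0.24. In drug-treated cells LPS raised Il6 by 2.77 and no other gene of the list passed, though 2 or 3 genes did under several alternatives (adjusted p = 5.2e-05 for Il6 by limma).

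Of 6 genes for partners and regulators of BCL3, Jun, a component of the AP-1 transcription factor, rose by 0.67 with LPS (SE 0.08, adjusted p = 0.00164 by limma), followed in size by the uncalled Hdac1 at -0.10 and Gsk3b at 0.07. Jun also rose in drug-treated cells, by 0.46 (adjusted p = 0.0434 by limma). That call was lost without any single array other than Telmisartan+LPS replicate 3, with both arrays that stand apart left out, with the replicate block on title numbers, with arrays centred on their medians and with only the compared groups in the fit.

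**Figure D4:**
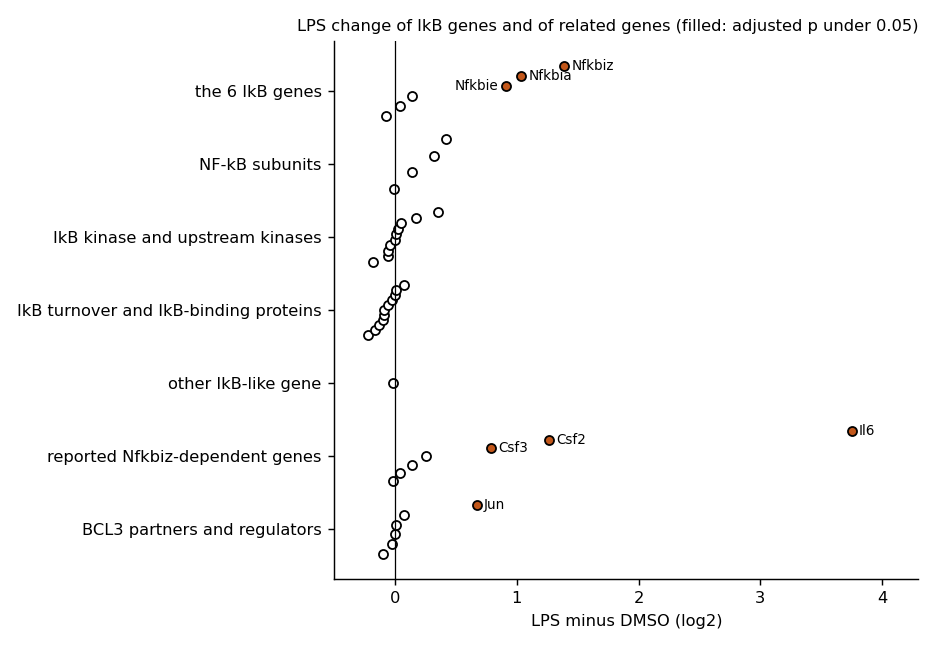
LPS minus DMSO (x axis, log2) for the 6 IkB genes and the measured genes of 6 related lists (rows), with 1 point per gene, spread vertically by rank, and filled where the limma adjusted p is under 0.05. Filled points are Nfkbiz, Nfkbia, Nfkbie, Il6, Csf2, Csf3 and Jun.

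The genes whose values over the 12 arrays lay closest to each induced member were found by the root mean square distance after centring each gene on its own mean, over 22179 other genes. For Nfkbiz, whose own spread by that measure was 0.63, the nearest was Acod1, the itaconate-producing enzyme, at a distance of 0.09. Next came Nlrp3, the inflammasome sensor, at 0.12, the kinase gene Pim1 at 0.13, the activation marker Cd69 at 0.15 and the stress gene Ier3 at 0.16. For Nfkbia, with a spread of 0.48, the nearest were Slfn2 at 0.09, Pim1 and the receptor gene Gpr84 at 0.10, the transcription factor gene Irf1 at 0.11 and the potassium channel gene Kcnj2 at 0.12. For Nfkbie, with a spread of 0.42, they were more distant, from the chemokine gene Ccl5 at 0.16 through Cflar, a caspase inhibitor, at 0.17 and Slfn2 and Kcnj2 at 0.18 to the chemokine gene Ccl7 at 0.19. The neighbours of Nfkbiz had drug differences under LPS from -0.56 to -0.26, those of Nfkbia from -0.33 to -0.09 and those of Nfkbie from -0.28 to -0.09. The neighbours were picked on all 12 arrays, including those compared here. A drug difference near that of the member therefore follows from the choice and is no separate result. These likenesses describe these arrays, which all share the split between cells with and without LPS, and carry no test.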

How the data were processed

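RNA of BV2 cells was measured on 12 Affymetrix mouse gene arrays of the MoGene-2_0-st design named in the file headers (a labelling protocol names an earlier design), 3 in each of 4 groups taken from the treatment labels. Per the file headers, the authors ran gene-level RMA (background correction, quantile normalization over the 12 arrays, median polish) with engine 1.4.1.46 of Expression Console and deposited its log2 output. Quantile normalization forces equal distributions, so changes are relative to all features. The summary table has 2 decimals, and a series matrix of the same values differed from it by at most 0.005. There is no read depth here: the small number of arrays sets the precision.

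The probe table gave 1 symbol for 23521 of 41345 features, several for 1820 and none for 16004, and Entrez identifiers linked 23328 of the former to RefSeq. The feature with the highest mean stood for a gene, which left 22180 genes. Genes without a feature of their own, such as Nfkb1, were not analysed here. A linear model with 4 group means was fitted in limma 3.58.1 (R 4.3.3, 8 residual and 4.99 prior degrees of freedom). The code was also run on simulated data with independent normal noise and set LPS effects only. That run does not cover arrays that stand apart, drug effects or technical replicates. Adjusted p-values are Benjamini-Hochberg over all genes. The members and lists were chosen with earlier results of these data known. Named were all 6 members, of each list the called genes and the 3 with the largest LPS change, and for each member called with LPS the 5 nearest genes. Alternatives were the series matrix, a filter on dim genes, trend and robust options, array weights, only the compared groups, the mean over features, centring on array medians and leaving out each array. Leaving out Telmisartan+LPS replicates 1 and 3 together, and a block on sets of consecutive title numbers, were added after seeing the data.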

Additional observations from a re-analysis of the deposited data

How the results depend on the processing

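The titles carry running numbers that fall into 3 consecutive sets of 4, each with every group, but no label calls a set a batch. Deviations from the group means of arrays in 1 set correlated between -0.05 and 0.08 (18 pairs), so the numbers were not taken to pair the arrays. With the sets as a replicate block, added after seeing the data, the number of members called stayed at 3 for LPS minus DMSO (91 of all genes against 95) and 2 for Telmisartan+LPS minus Telmisartan (54 against 58), and 0 for both drug comparisons and the interaction. Of 864 recomputed changes of single members, 849 kept their direction and their side of the threshold, 2 passed it newly and 13 changed sign, and none lost a call. Many of the 864 could not change direction, because the setting leaves the estimate of a member as it was. Such settings were the mean over features, the dim filter, trend and robust options, only the compared groups and the replicate block. Leaving out an array of a group not compared was another. The tally therefore says little about how stable the directions are. Both new calls came with trend and robust options, under which 1 member, Nfkbiz, was called for Telmisartan+LPS minus LPS and all genes called there numbered 14 against 0. As a yardstick for the nuclear minus cytoplasmic contrast, 0.0732 was used, the pooled SD of the class difference on single arrays within groups. The contrast moved by more than that only without Telmisartan+LPS replicates 1 and 3. It moved to -0.08 for Telmisartan+LPS minus LPS, to -0.15 for Telmisartan+LPS minus Telmisartan and to 0.03 for the interaction, each from the 1 array left. Without both arrays Nfkbie was at 0.03 for Telmisartan+LPS minus LPS and at 0.05 for the average telmisartan effect.

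The other sign changes were of values near 0. For Telmisartan minus DMSO, Nfkbia was at 0.01 with arrays centred on their medians and between -0.05 and 0.03 with single arrays left out, Nfkbie between -0.03 and 0.15, and Bcl3 between -0.00 and 0.12. With single arrays left out, Bcl3 ran from -0.01 to 0.12 for Telmisartan+LPS minus Telmisartan and from -0.01 to 0.05 for the average telmisartan effect, and the Nfkbib interaction from -0.04 to 0.02. The LPS rise of Nfkbie depended most on single arrays among the called members, with 0.81 to 1.04 and an adjusted p of up to 0.0426 in limma, without DMSO replicate 2. Over all alternatives the number of genes called was 66 to 128 for LPS minus DMSO (95 as reported), 25 to 164 for Telmisartan+LPS minus Telmisartan (58, with 25 without both arrays named above and 31 without Telmisartan replicate 3), 85 to 281 for the average LPS effect (148), 0 to 3 for the interaction (0, with 3 without LPS replicate 3), 0 to 12 for the average telmisartan effect (1) and 0 to 14 for Telmisartan+LPS minus LPS (0). The causes were not tested.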
